A study of Mus musculus with 4 samples.

Results

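The 10 genes described here encode proteins of the TGF-beta and BMP signalling pathway: the receptors Acvrl1, Eng, Tgfbr1 and Tgfbr2, the ligand Tgfb1, the inhibitory SMADs Smad6 and Smad7, and the targets Id1, Id2 and Id3. They were chosen by symbol from the 24497 gene rows of the deposited table, and all 10 were found. The choice was made with the values of these libraries known, so differences between genotypes in these 10 genes are described and not tested. The libraries came from cultured mouse acute myeloid leukaemia cells (NRAS/AE9a leukemic cells), grown from bone marrow haematopoietic stem cells and carrying both NRAS and AE9a. AE9a is a truncated product of the AML1-ETO oncogene. The Tet2 KO group (2 libraries) was derived from Tet2-/- mice with exon 3 of Tet2 deleted, and the WT group (2 libraries) from wild-type mice. Both groups grew with stem cell factor (50 ng/ml), IL-3 and IL-6 (10 ng/ml each) under selection by puromycin (2 µg/ml) and G418 (1 mg/ml), and no other treatment is labelled. The labels do not say how many mice, cultures or clones each group represents, nor the age of the mice, so the p-values below reflect only how far these libraries differ among themselves, possibly for technical reasons alone.

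TGF-beta family ligands are dimers that bring together type II and type I receptors, which are serine/threonine kinases. The type II receptor phosphorylates the type I receptor, and the type I receptor phosphorylates a SMAD protein, which enters the nucleus with Smad4. Tgfbr1 and Acvr1b act mainly on Smad2 and Smad3, whereas Acvrl1 (ALK1), Acvr1 and Bmpr1a act mainly on Smad1, Smad5 and Smad9 and induce the Id genes. Acvrl1 and its co-receptor Eng (endoglin) are best known from blood vessels, where they bind BMP9 and BMP10. In blood cells TGF-beta is known as a restraint on the cycling of stem cells.

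Expression was deposited as TPM, which counts transcripts per fixed total and per length, a unit that allows levels of different genes to be compared. No sequencing depth can be read from it, and no counting interval was computed. Spike-in RNAs took 5.33 to 5.48% of the total in the Tet2 KO libraries and 4.38 to 4.43% in the WT libraries. Replicates of 7941 genes with a mean of 10 TPM or more differed by a median absolute log2 difference of 0.0716 between the Tet2 KO libraries and 0.0504 between the WT libraries, against 0.33 to 0.354 between libraries of different genotype. Of 11452 genes tested with limma, 73.9% passed an adjusted p of 0.05, with 54.4% higher and 19.5% lower in Tet2 KO. Over all genes tested, log2 fold changes had a median of 0.23, so where it matters a value is also given on the median-ratio scale, on which that general shift is removed, or on the spike-in scale, on which spike-in RNA is held equal. Tet2 itself stood at 16.98 and 16.95 TPM in Tet2 KO and at 16.62 and 16.98 TPM in WT, a gene-level value that does not separate exon 3 and so does not check the deletion. The labelled cell type was checked with 16 myeloid and leukaemia genes, among them Ptprc, Spi1, Mpo and Itgam. All 16 passed the filter of 1 TPM in at least 2 libraries, which does not tell leukaemic from other myeloid cells. Of the 16, 6 rose and 9 fell in Tet2 KO, beside 54.4% and 19.5% of all genes tested. Their sum was 2844 and 2861 TPM in Tet2 KO cells, against 3978 and 3965 TPM in WT.

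The promoter sequences of the genes that differed most are shown first, with the motifs that SMAD proteins are known to bind. RefSeq windows on GRCm38.p6, running from 250 bases before to 50 bases after a start site, were matched by symbol for 7 of the 10 genes (not for Acvrl1, Smad7 and Id1), with 8 start sites in all. The 250 upstream bases are printed for Eng, Tgfbr1 (the first of its 2 start sites) and Id2, the 3 matched genes with the largest absolute log2 fold change. The RefSeq start of Id2 lies inside the gene as GENCODE M21 places it. Capitals mark the SMAD box CAGAC and the GC-rich SMAD element GGCGCC, on either strand.
Eng, chr2:32646345-32646594, plus strand: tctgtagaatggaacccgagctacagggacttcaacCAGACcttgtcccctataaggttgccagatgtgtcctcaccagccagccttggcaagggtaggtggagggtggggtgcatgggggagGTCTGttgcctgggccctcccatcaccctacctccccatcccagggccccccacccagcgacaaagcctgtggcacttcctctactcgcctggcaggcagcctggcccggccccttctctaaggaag
Tgfbr1, chr4:47352972-47353221, plus strand: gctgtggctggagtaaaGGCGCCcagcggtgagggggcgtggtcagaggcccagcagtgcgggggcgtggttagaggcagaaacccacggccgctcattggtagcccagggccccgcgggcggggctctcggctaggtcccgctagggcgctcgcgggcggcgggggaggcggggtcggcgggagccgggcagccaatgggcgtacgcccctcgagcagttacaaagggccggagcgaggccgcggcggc
Id2, chr12:25096093-25096342, minus strand: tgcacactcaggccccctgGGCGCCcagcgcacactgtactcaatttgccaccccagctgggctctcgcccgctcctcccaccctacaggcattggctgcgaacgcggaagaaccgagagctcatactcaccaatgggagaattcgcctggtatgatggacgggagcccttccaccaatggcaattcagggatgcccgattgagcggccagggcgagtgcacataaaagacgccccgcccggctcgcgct
The Eng window held 2 SMAD boxes and no GC-rich element, and the Tgfbr1 and Id2 windows each held 1 GC-rich element and no SMAD box. Of the windows not printed, those of Tgfbr2 and the other Tgfbr1 start held 1 SMAD box each, that of Id3 held 2, and those of Tgfb1 and Smad6 held neither. Over all 32851 windows of the RefSeq table, 49.6% held a SMAD box and 11.9% a GC-rich element. The 250 bases upstream of Eng had 4 CG dinucleotides, those of Tgfbr1 had 29 and those of Id2 had 18, against a median of 6 over all windows. CG dinucleotides are the sites at which Tet2 acts, and their methylation was not measured here. Smad6 was the only one of the 7 matched genes with the SMAD palindrome GTCTAGAC, which 0.213% of all windows held. The 30 bases around it are printed with the palindrome in capitals; it spans the start site, from base -4 to base 4.
Smad6, chr9:64022045-64022074, minus strand: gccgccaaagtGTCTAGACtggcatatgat
None of the 8 windows held TGTGGT, the core bound by RUNX proteins, which 16.8% of all windows held. These matches describe letters only and were not tested as sites.

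Acvrl1 RNA was 8.63-fold lower in Tet2 KO cells than in WT cells, and the other receptors among the 10 genes were higher. Acvrl1 (chromosome 15, 101128522 to 101145336, mm10) encodes the type I receptor ALK1. It was at 15.49 and 17.82 TPM in Tet2 KO libraries, against 145.94 and 141.67 TPM in WT libraries. Both Tet2 KO libraries lay far below both WT libraries. In bulk RNA, fewer cells of a type and less RNA per cell cannot be told apart. The means were 16.7 ± 1.65 TPM in Tet2 KO and 143.8 ± 3.02 TPM in WT (SD, n = 2 each), a log2 fold change of -3.04 (SE 0.0644) on the log2(TPM + 1) scale used throughout. In Tet2 KO the level of Acvrl1 exceeded that of 41.0% of the genes tested, and in WT that of 91.9%. Ordered from the most negative log2 fold change, Acvrl1 ranked 9 among the 11452 genes tested. An antisense gene, Gm16031, overlaps Acvrl1 and was not a row of the table. Libraries were made with a stranded kit, but whether the quantification used the strand is not given in the sources used here.

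Tgfbr1 (chromosome 4, 47353222 to 47414931), the type I receptor for TGF-beta, was at 74.92 and 70.04 TPM in Tet2 KO cells, against 32.23 and 34.29 TPM in WT, a 2.18-fold difference of means (log2 fold change 1.10, SE 0.0586). Tgfbr2, the type II receptor that partners it, was at 53.38 and 52.78 TPM in Tet2 KO cells, against 41.20 and 42.23 TPM in WT (log2 fold change 0.34, SE 0.0547). The groups did not overlap for either gene, where 86.8% of all genes tested did not. On the median-ratio scale the difference was 0.86 for Tgfbr1 and 0.10 for Tgfbr2, so on that scale Tgfbr2 was close to the typical gene. Eng (chromosome 2, 32646595 to 32682669), the accessory receptor that presents ligand to Acvrl1, was at 29.39 and 31.22 TPM in Tet2 KO and at 13.38 and 11.82 TPM in WT (log2 fold change 1.20, SE 0.0732). It was 2.41-fold higher in Tet2 KO, opposite in direction to Acvrl1. Small RNA genes on the same strand and Fpgs on the other strand overlap Eng. Fpgs was at 14.02 and 15.92 TPM in Tet2 KO cells against 12.95 and 9.94 TPM in WT, so the value of Eng is uncertain to the extent that reads were shared.

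**Figure D1:**
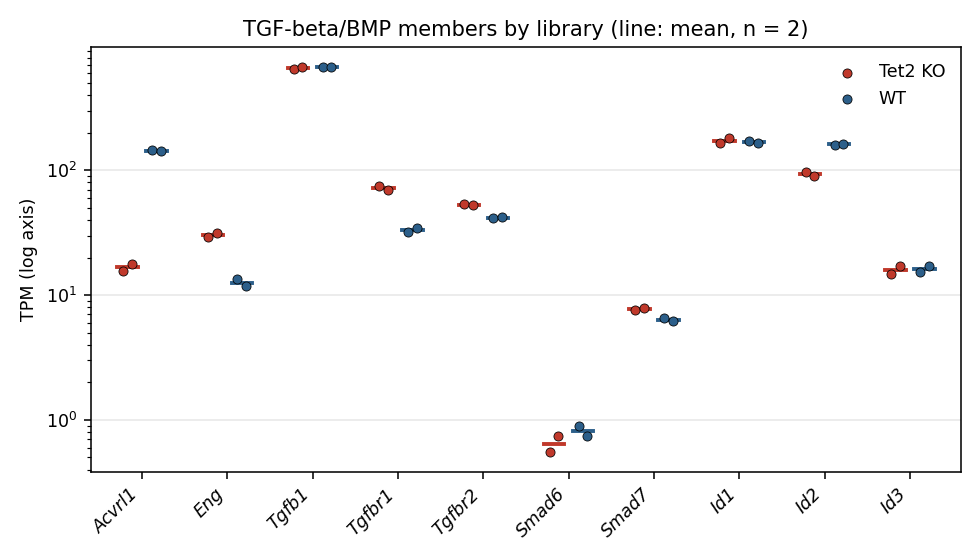
TPM of the 10 genes in each library on a log axis, with the 2 Tet2 KO libraries (red) left of the 2 WT libraries (blue) and a line at each mean. Acvrl1 shows the widest gap, with Tet2 KO at 15.49 and 17.82 TPM and WT at 145.94 and 141.67 TPM, while Tgfb1, Id1 and Id3 overlap between groups.

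Shares within a library do not depend on how libraries are scaled. Acvrl1 made up 11.4 and 13.6% of the summed TPM of the 7 type I receptor genes in Tet2 KO libraries, against 67.5 and 66.7% in WT libraries. Tgfbr1 made up 54.4 ± 1.17% of that sum in Tet2 KO and 15.5 ± 0.874% in WT (SD, n = 2 each). The leading type I receptor RNA was thus Tgfbr1 in Tet2 KO and Acvrl1 in WT. Acvr1b, an activin receptor whose gene lies beyond Acvrl1 on the same strand of chromosome 15 (101174067 to 101213684), held 26.8 ± 0.427% in Tet2 KO and 14.3 ± 0.359% in WT. The sum itself was 135.5 and 130.6 TPM in Tet2 KO cells, against 216.1 and 212.3 TPM in WT, while the sum over 5 type II receptors was 74.2 and 72.7 TPM in Tet2 KO cells, against 50.8 and 53.6 TPM in WT. The TPM of Eng was 1.90 and 1.75 times that of Acvrl1 in Tet2 KO libraries and 0.0917 and 0.0834 times in WT libraries.

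**Figure D2:**
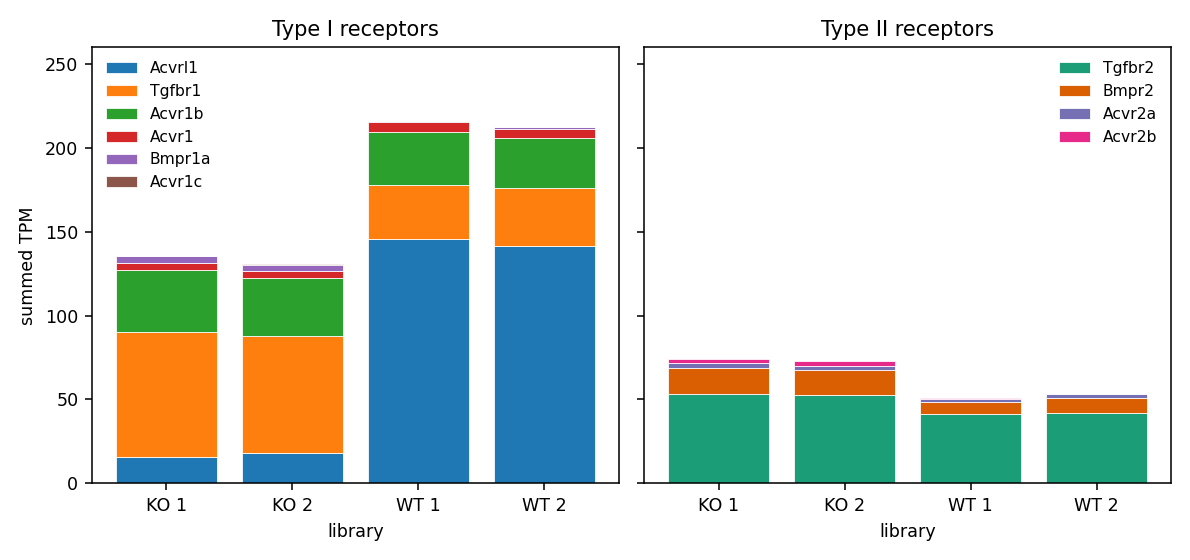
Summed TPM of type I receptor genes (left panel) and type II receptor genes (right panel) in each library, Tet2 KO before WT, divided by gene; Bmpr1b and Amhr2, listed at or near 0, are not drawn. Acvrl1 fills 11.4 and 13.6% of the type I bars in Tet2 KO, where Tgfbr1 is the largest portion, and 67.5 and 66.7% in WT.

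The ligand gene Tgfb1 was the most abundant of the 10 in every library and lay at nearly the same level in both genotypes. It was at 649.43 and 674.11 TPM in Tet2 KO and at 677.52 and 673.36 TPM in WT (log2 fold change -0.03, SE 0.0353). One Tet2 KO library fell between the WT libraries, so the groups overlapped. Tgfb1 was lower in Tet2 KO on the median-ratio scale (-0.28) and higher after quantile normalization (0.20), so its direction depends on the scaling.

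The inhibitory SMADs, which block type I receptors and are themselves induced by the pathway, were low in both groups. Smad7 was at 7.55 and 7.81 TPM in Tet2 KO cells, against 6.52 and 6.17 TPM in WT (log2 fold change 0.24, SE 0.0900). The groups did not overlap in deposited TPM, but on the median-ratio scale the difference was 0.03. On the spike-in scale it was -0.02. Smad6, the inhibitor more specific to BMP receptors, was at 0.55 and 0.74 TPM in Tet2 KO and at 0.90 and 0.74 TPM in WT. It was the 1 gene of the 10 below the filter of 1 TPM in at least 2 libraries, and a value was shared between the groups.

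The ID genes encode helix-loop-helix proteins that lack a DNA-binding region and sequester E proteins. Of the 3, only Id2 had groups that did not overlap, where 86.8% of all genes tested did not. Id2 (chromosome 12, 25093799 to 25097140) was at 96.20 and 89.88 TPM in Tet2 KO cells, against 160.45 and 162.84 TPM in WT, 1.74-fold lower (log2 fold change -0.79, SE 0.0483). Id1 was at 166.53 and 180.21 TPM in Tet2 KO and at 172.63 and 166.71 TPM in WT (log2 fold change 0.03, SE 0.0475). Id3 was at 14.74 and 16.97 TPM in Tet2 KO and at 15.42 and 17.23 TPM in WT (log2 fold change -0.04, SE 0.0821). The groups overlapped for Id1 and Id3, and on the median-ratio scale both were lower in Tet2 KO, by -0.21 for Id1 and -0.27 for Id3. The fourth gene of the family, Id4, was listed at 0 in every library. Within a library, the TPM of Id1 was 1.73 and 2.01 times that of Id2 in Tet2 KO, against 1.08 and 1.02 times in WT. Id1 thus took 61.4 ± 1.95% of the summed ID gene TPM in Tet2 KO and 48.8 ± 1.03% in WT (SD, n = 2 each).

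In Tet2 KO the order of mean levels was Tgfb1, Id1, Id2, Tgfbr1, Tgfbr2, Eng, Acvrl1, Id3, Smad7 and Smad6, and Acvrl1 and Id3 were the only neighbours whose libraries overlapped. In WT it was Tgfb1, Id1, Id2, Acvrl1, Tgfbr2, Tgfbr1, Id3, Eng, Smad7 and Smad6, with no overlap between neighbours. At the limma threshold 4 of the 9 genes that passed the filter were higher in Tet2 KO and 2 were lower, where 54.4% and 19.5% of all genes tested were (73.9% in either direction). On the median-ratio scale 2 were higher and 5 lower, where 33.3% and 34.4% of all genes tested were (67.7% in either direction). On the spike-in scale the counts were also 2 and 5, where 29.6% and 37.8% of all genes tested were (67.4% in either direction). Groups did not overlap for 6 of the 9, where 86.8% of all genes tested did not. These counts are given beside their background only, since the genes were chosen with this contrast in view.

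**Figure D3:**
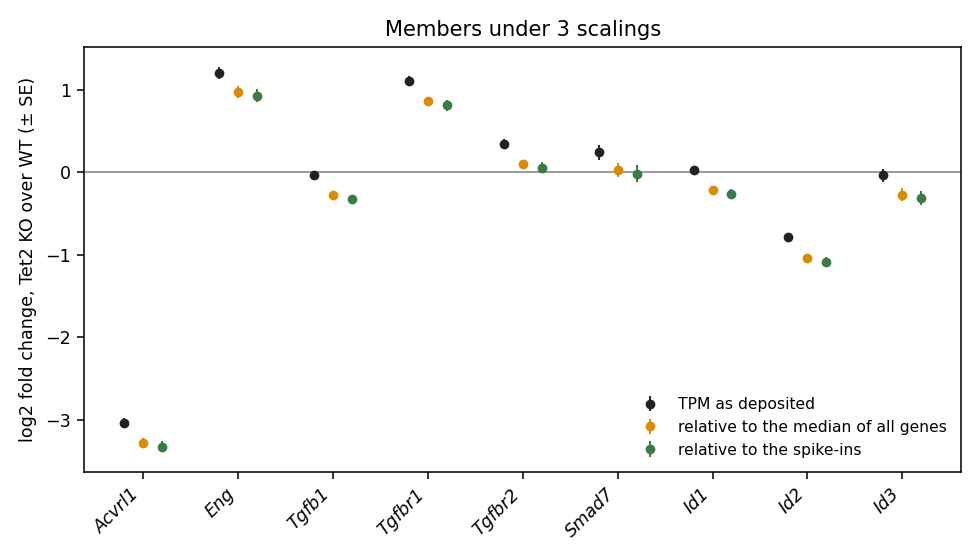
Log2 fold change of Tet2 KO over WT for the 9 genes that passed the filter, with SE bars, on TPM as deposited (black), on the median-ratio scale (orange) and on the spike-in scale (green). Acvrl1 lies between -3.33 and -3.04 and Id2 between -1.08 and -0.79, Eng and Tgfbr1 stay at or above 0.81 on all 3 scales, and Tgfbr2 and Smad7 lie near 0 on the rescaled ones.

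Similarity to Acvrl1 over the 4 libraries was measured by Euclidean distance between mean-centred log2(TPM + 1) values. The 7761 candidates were genes averaging at least 10 TPM, without Acvrl1 itself. Symbols made of Gm and a number, symbols with Rik, and symbols opening with digits and a hyphen were also left out. The 6 nearest genes were Itgax, Cd74, Ccnd1, Angptl2, Olr1 and Atp6v0d2, at distances of 0.103 to 0.364. Itgax, the gene of the integrin CD11c, was nearest, with 9.61 and 11.20 TPM in Tet2 KO cells against 86.31 and 86.44 TPM in WT. Ccnd1, which encodes cyclin D1, was at 6.22 and 6.99 TPM in Tet2 KO cells against 52.30 and 54.95 TPM in WT. With 2 libraries in each of 2 groups, this distance mainly ranks genes by how nearly their genotype difference equals that of Acvrl1.

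The remaining genes of the pathway were read from a list of 144 symbols grouped by role. Of these, 65 passed the filter and 28 were listed at 0 in every library. Among the 65, 48 rose and 10 fell in Tet2 KO (limma, adjusted p under 0.05), beside 54.4% and 19.5% of all genes tested. The list median was 0.39 and that of all genes 0.23. On the median-ratio scale, 31 rose and 15 fell, beside 33.3% and 34.4% of all genes. All genotype differences in this list come from the same libraries as those of the 10 genes above.

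Of the 6 SMADs that carry the signal, 5 passed the filter. All 5 were called higher in Tet2 KO, beside 54.4% of all genes tested, and 4 of them (not Smad2) on the median-ratio scale, beside 33.3%. Smad3, which carries TGF-beta and activin signals, was at 5.17 and 6.24 TPM in Tet2 KO cells, against 0.47 and 0.42 TPM in WT (log2 fold change 2.21, SE 0.123, limma adjusted p = 1.23e-10). It stood below 1 TPM in both WT libraries and was 12.8-fold higher in Tet2 KO. Smad5, which carries BMP signals, was at 24.34 and 22.56 TPM in Tet2 KO cells, against 9.44 and 9.35 TPM in WT (log2 fold change 1.23, SE 0.0735, limma adjusted p = 3e-10). Its close relative Smad1 rose to 9.23 ± 0.474 TPM in Tet2 KO cells, against 5.23 ± 0.0283 TPM in WT, and Smad4, the partner common to both branches, to 36.6 ± 0.651 TPM, against 20.2 ± 0.0354 TPM in WT (limma adjusted p = 2.55e-06 for Smad1 and 3.66e-09 for Smad4). Smad2 was at 13.2 ± 0.417 TPM in Tet2 KO and 10.6 ± 0.396 TPM in WT (log2 fold change 0.29, limma adjusted p = 0.0031). Its difference on the median-ratio scale was 0.07 and was not called (limma adjusted p = 0.41, range over alternatives 0.00211 to 0.857). Smad9 was at 0.16 and 0.07 TPM in Tet2 KO and at 0.11 and 0.17 TPM in WT, below the filter. The receptor-regulated SMADs summed to 51.5 and 51.9 TPM in Tet2 KO cells, against 25.5 and 26.1 TPM in WT. Smad3 made up 11.03 ± 1.39% of that sum in Tet2 KO and 1.73 ± 0.162% in WT, and Smad2 25.1 and 26.0% in Tet2 KO against 40.3 and 41.7% in WT.

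**Figure D4:**
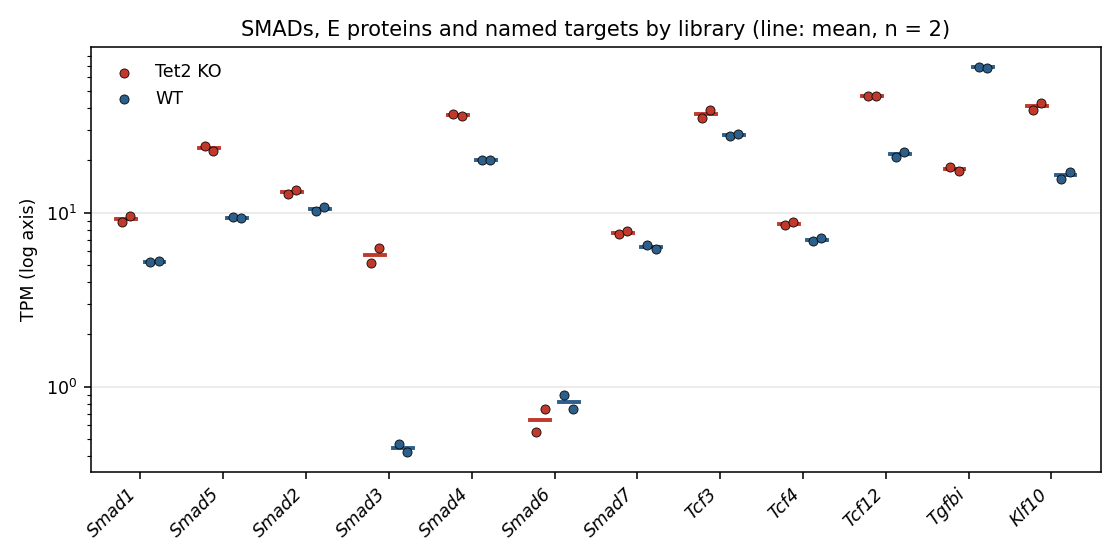
TPM of SMADs, E proteins and 2 named targets in each library on a log axis, Tet2 KO (red) left of WT (blue), with a line at each mean. Smad3 has the widest gap, with Tet2 KO at 5.17 and 6.24 TPM and WT at 0.47 and 0.42 TPM, whereas Tgfbi is lower in Tet2 KO.

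Of the other receptors, 5 of the 6 tested rose and Acvr1 fell, beside 54.4% and 19.5% of all genes tested. Median-ratio scaling left 3 higher and 1 lower, beside 33.3% and 34.4%. The BMP type I receptor gene Bmpr1a rose 5.11-fold, to 4.03 and 3.59 TPM in Tet2 KO cells against 0.70 and 0.79 TPM in WT (limma adjusted p = 1.55e-08). The activin type II receptor gene Acvr2b rose 5.53-fold, to 2.19 and 2.40 TPM in Tet2 KO cells against 0.42 and 0.41 TPM in WT (limma adjusted p = 2.62e-07). Both genes were below 1 TPM in both WT libraries. Bmpr2, the BMP type II receptor with which Acvrl1 pairs, rose to 14.99 ± 0.544 TPM in Tet2 KO cells, against 7.95 ± 0.750 TPM in WT (limma adjusted p = 1.84e-07). Acvr1, the type I receptor ALK2, fell to 4.27 ± 0.170 TPM in Tet2 KO cells, against 5.66 ± 0.0283 TPM in WT (log2 fold change -0.34, limma adjusted p = 0.00537). The activin receptor genes Acvr1b (log2 fold change 0.21) and Acvr2a (log2 fold change 0.40) were called higher on the deposited scale. Neither was called on the median-ratio scale, with Acvr1b at -0.03 and Acvr2a at 0.23. Acvr1b was also not called without WT replicate 2 (limma adjusted p = 0.0867, range over alternatives 0.00327 to 0.755). Acvr2a was not called without WT replicate 1 (limma adjusted p = 0.162) or Tet2 KO replicate 1 (limma adjusted p = 0.0891, range over alternatives 0.00359 to 0.371). Co-receptor genes, among them Tgfbr3 (betaglycan) and Bambi, were all below the filter.

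Besides Tgfb1, few ligand genes passed the filter. Of 32, 3 did and 14 were listed at 0 throughout. Among the 3, 2 rose and none fell, beside 54.4% and 19.5% of all genes tested. Gdf15, a distant family member induced by cell stress, rose to 61.62 and 67.68 TPM in Tet2 KO cells, against 17.12 and 17.41 TPM in WT (log2 fold change 1.84, SE 0.0623, limma adjusted p = 2.52e-13). Inhba, which encodes the activin A subunit, rose to 55.9 ± 3.60 TPM in Tet2 KO cells, against 41.8 ± 1.85 TPM in WT (limma adjusted p = 1.5e-05). It was not called on the spike-in scale (0.12, limma adjusted p = 0.111, range over alternatives 1.45e-06 to 0.111). Gdf2 and Bmp10, which encode BMP9 and BMP10, were listed at 0 in every library. Of 5 tested genes that store or activate latent TGF-beta, 2 rose and 3 fell against the same shares; Itgav, which rose, was not called on the median-ratio scale, and Nrros was the third that fell. Thbs1, which encodes the latency-releasing protein thrombospondin-1, fell to 888 ± 14.0 TPM in Tet2 KO cells, against 1192 ± 27.2 TPM in WT (limma adjusted p = 9.11e-09). Furin, the protease gene that matures the TGF-beta precursor, fell to 303.9 ± 20.9 TPM in Tet2 KO cells, against 421.8 ± 8.99 TPM in WT, and Ltbp3, a latent TGF-beta binding protein gene, rose to 4.10 ± 0.651 TPM, against 0.545 ± 0.0495 TPM in WT (limma adjusted p = 3.26e-07 for Furin and 4.42e-09 for Ltbp3).

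Of 13 tested inhibitors that act inside the cell, 11 rose and none fell, beside 54.4% and 19.5% of all genes tested. Scaled by the median ratio, 6 rose and 2 fell (Ski and Strap, named after their values were seen), beside 33.3% and 34.4%, and on the spike-in scale 5 rose and 2 fell, beside 29.6% and 37.8%. The ubiquitin ligase gene Nedd4l rose to 21.4 ± 0.269 TPM in Tet2 KO cells, against 12.3 ± 0.191 TPM in WT, and the corepressor gene Tgif1 to 91.4 ± 0.834 TPM, against 59.4 ± 2.15 TPM in WT. Tgif2 rose to 4.74 ± 0.460 TPM in Tet2 KO cells, against 2.05 ± 0.163 TPM in WT, and the limma adjusted p of these genes was 6.71e-08 for Nedd4l, 2.01e-08 for Tgif1 and 1.91e-06 for Tgif2. Of 16 tested SMAD partners, adaptors and positive regulators, 14 rose and none fell, or 10 rose and 2 fell on the median-ratio scale (Usp4 and Zfyve16, named after their values were seen), to be read against the same shares. Zeb1, a zinc finger repressor gene whose product binds SMADs, rose to 15.3 ± 1.18 TPM in Tet2 KO cells, against 5.65 ± 0.771 TPM in WT, and Usp11, a deubiquitinase gene, to 11.9 ± 1.66 TPM, against 4.43 ± 0.481 TPM in WT. Crebbp, the acetyltransferase coactivator gene, rose to 24.2 ± 1.66 TPM in Tet2 KO cells, against 14.3 ± 0.290 TPM in WT (limma adjusted p = 6.16e-09 for Zeb1, 4.03e-08 for Usp11 and 1.37e-07 for Crebbp). Outside the cell, 2 of 3 tested antagonists rose and 1 fell, again beside 54.4% and 19.5% of all genes tested. Fstl1, a follistatin-like gene, rose to 17.58 and 18.63 TPM in Tet2 KO cells, against 3.68 and 3.82 TPM in WT (log2 fold change 2.01, limma adjusted p = 4.68e-12). Dand5, a nodal antagonist gene, rose to 4.31 ± 0.0212 TPM in Tet2 KO cells, against 3.01 ± 0.156 TPM in WT, but was not called on the median-ratio scale (0.21, limma adjusted p = 0.0718, range over alternatives 0.00159 to 0.212). Twsg1, a BMP-binding protein gene, fell to 14.0 ± 1.30 TPM in Tet2 KO cells, against 16.7 ± 0.318 TPM in WT, a call lost without WT replicate 2 (limma adjusted p = 0.076) or Tet2 KO replicate 2 (limma adjusted p = 0.0842, range over alternatives 7.75e-08 to 0.0842).

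Known target genes of the pathway moved in both directions. Of 11 tested, 4 rose and 5 fell, beside 54.4% and 19.5% of all genes tested, or 2 and 6 on the median-ratio scale, beside 33.3% and 34.4%. Tgfbi, an extracellular matrix gene first isolated as TGF-beta induced, fell to 18.22 and 17.47 TPM in Tet2 KO cells, against 69.24 and 67.95 TPM in WT (log2 fold change -1.89, SE 0.0582, limma adjusted p = 8.05e-14). Klf10, a TGF-beta inducible early gene, went the other way, with 39.13 and 42.86 TPM in Tet2 KO cells against 15.65 and 17.16 TPM in WT (log2 fold change 1.27, SE 0.0685, limma adjusted p = 8.7e-11). Others that fell included Cdkn2b, Gadd45b and Spp1, and the others that rose were Cdkn1a, Junb and Itgae; these 6 are named after their values were seen. On the median-ratio scale Cdkn1a and Junb were not called and Acta2 also fell. Itgae was not called after quantile normalization (limma adjusted p = 0.062, range over alternatives 0.000612 to 0.062). Cdkn2b, a cell cycle inhibitor gene induced by TGF-beta in epithelial cells, was at 5.06 ± 0.120 TPM in Tet2 KO and 9.92 ± 0.247 TPM in WT. The 3 E protein genes, whose products ID proteins bind, all rose, beside 54.4% of all genes tested. On the median-ratio scale 2 were called higher, beside 33.3%, and on the spike-in scale 1 was, beside 29.6%. Tcf12 rose to 46.9 ± 0.311 TPM in Tet2 KO cells, against 21.8 ± 0.983 TPM in WT, and Tcf3 to 37.1 ± 2.60 TPM, against 28.2 ± 0.495 TPM in WT (limma adjusted p = 1.38e-10 for Tcf12 and 4.25e-05 for Tcf3). On the spike-in scale Tcf3 was not called (limma adjusted p = 0.225, range over alternatives 6.86e-06 to 0.225). Tcf4 was at 8.66 ± 0.276 TPM in Tet2 KO and 7.02 ± 0.163 TPM in WT (limma adjusted p = 0.0111), and was not called on the median-ratio scale (0.05, limma adjusted p = 0.575) or without WT replicate 1 (limma adjusted p = 0.0783, range over alternatives 0.00732 to 0.982).

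**Figure D5:**
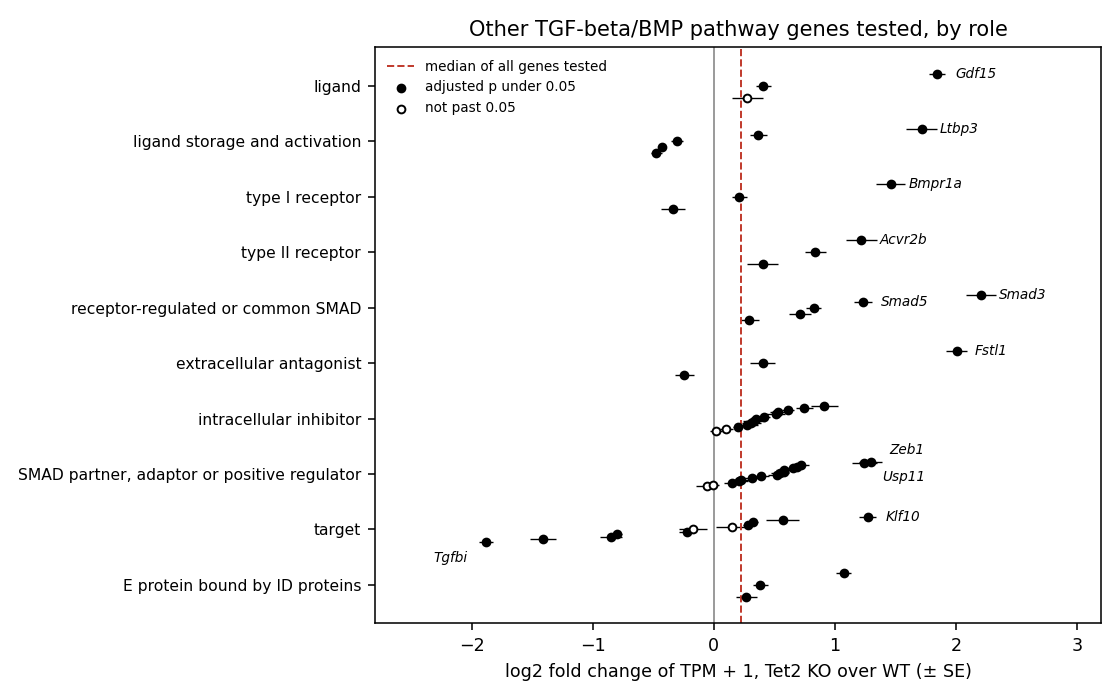
Log2 fold change of Tet2 KO over WT with SE bars for the 65 tested genes of the pathway list, by role; filled points passed an adjusted p of 0.05 in limma, and the dashed line is the median of all genes at 0.23. The 5 SMADs lie to the right of 0, from 0.29 to 2.21, while targets range from -1.89 to 1.27.

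Markers of other cell types that express these genes were read beside them. Of 15 endothelial genes, 12 were below 1 TPM in every library, and Emcn, Cldn5, Robo4 and Sox17 were listed at 0. Cdh5 was listed at 0 in 3 libraries and at 0.03 TPM in WT replicate 2. The list summed to 232.5 and 248.5 TPM in Tet2 KO cells, against 307.4 and 304.7 TPM in WT, and was mostly Pecam1, which myeloid cells also express, at 172.5 ± 4.98 TPM in Tet2 KO and 262.6 ± 1.67 TPM in WT. The other 2 tested, Vwf and Tie1, rose to 61.5 ± 5.58 and 4.54 ± 0.297 TPM in Tet2 KO cells, against 39.9 ± 0.148 and 2.08 ± 0.0212 TPM in WT. Of the 3 endothelial genes tested, 2 thus rose and 1 fell, beside 54.4% and 19.5% of all genes tested. Of 9 tested macrophage genes, 2 rose and 6 fell, beside 54.4% and 19.5% of all genes tested. On the median-ratio scale Fcgr1 rose and all the others tested fell, beside 33.3% and 34.4%. The macrophage list of 16 summed to 859 and 896 TPM in Tet2 KO cells, against 1132 and 1122 TPM in WT. Itgax, the gene nearest to Acvrl1 above, is on this list and fell 8.30-fold. Mrc1 fell 4.11-fold and Mertk 3.25-fold, while Fcgr1 rose 1.87-fold (named after their values were seen). Csf1r, the receptor gene of the macrophage growth factor, fell to 41.4 ± 2.84 TPM in Tet2 KO cells, against 100.1 ± 0.863 TPM in WT, while Adgre1 was at 322.5 ± 6.41 TPM in Tet2 KO and 302.5 ± 0.849 TPM in WT, higher as deposited and lower on the median-ratio scale. C1qa, a marker of resident macrophages, was listed at 0 throughout. Of 8 fibroblast genes 6 were below 1 TPM in every library, and Lum was listed at 0. Of the 2 tested, Pdgfrb rose and Thy1 fell, beside 54.4% and 19.5% of all genes tested. That list summed to 131.9 and 137.5 TPM in Tet2 KO cells, against 187.1 and 192.3 TPM in WT. Most of that sum was Thy1, at 117.2 ± 3.27 TPM in Tet2 KO and 185.0 ± 3.67 TPM in WT. Pdgfrb was at 17.2 ± 0.714 TPM in Tet2 KO and 4.625 ± 0.0495 TPM in WT. The part that macrophage genes have in the Acvrl1 difference was not tested.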

How the data were processed

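RNA sequencing of 2 Tet2 KO and 2 WT libraries was read from 1 table of TPM deposited by the authors, with 24589 rows (92 of them spike-ins) and 1 column per library. RNA came from QIAzol lysates and was sequenced from KAPA stranded mRNA libraries, per the labels' protocols. The submitters' processing notes name STAR, RSEM and mm10, without versions; annotation and filters: not given in the sources used here. TPM are shares of a fixed total, so a library with more of an abundant RNA or of spike-in RNA has lower values elsewhere, and depth is unknown.

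The 11452 genes with at least 1 TPM in at least 2 libraries were fitted with limma 3.58.1 in R 4.3.3 (statmod 1.5.0) on log2(TPM + 1), with trend and robust variance, spike-ins left out, two-sided, Benjamini-Hochberg over all genes tested, threshold 0.05. The log2 scale understates changes of low genes. Folds without log2 are ratios of mean TPM. The steps were tested on simulated data. The 10 genes, the pathway list and the marker lists were chosen with earlier results of these data known. Within each role, up to 3 called pathway genes with the largest change and at least 2 TPM in the higher group are named, with all tested receptors and signal-carrying SMADs; of the marker lists, genes at 0 or highest and Pecam1, Cdh5, Csf1r and Adgre1. One target gene that the rule names is not reported here. Gene positions are from GENCODE M21, on mm10. Alternatives were pseudocounts of 0.1 and 5, a filter of 5 TPM or none, the replicate number as a block, other normalizations (median ratio, quantile, spike-ins), limma without trend and robust estimation, and leaving out each library; leaving out the spike-in rows was added after seeing the data. Python 3.11.15 with matplotlib 3.10.9 drew the figures.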

Additional observations from a re-analysis of the deposited data

How the results depend on the processing

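After median-ratio scaling 3815 genes were higher and 3936 lower in Tet2 KO, after quantile normalization 3915 and 3741, and relative to the spike-ins 3394 and 4324, in place of 6225 and 2238. Among the 9 of the 10 genes that passed the filter, median-ratio scaling gave 2 higher and 5 lower calls, beside 33.3% and 34.4% of all genes tested. Relative to the spike-ins 2 and 5 were called, beside 29.6% and 37.8%. These stood in place of 4 and 2, beside 54.4% and 19.5%. Of the 65 pathway genes tested, 31 were higher after median-ratio scaling and 27 relative to the spike-ins, in place of 48. The shares of all genes tested were 33.3%, 29.6% and 54.4% in that order. With no filter on low values 17 pathway genes were lower, in place of 10. Over all genes 2348 of 16421 tested were then lower, in place of 2238 of 11452. Smad7 turned to -0.0342 after quantile normalization and to -0.0178 relative to the spike-ins. Acvr1b turned to -0.0274 after median-ratio scaling, -0.0231 after quantile normalization and -0.076 relative to the spike-ins, and Tcf4 to -0.0021 after quantile normalization. Median-ratio and spike-in scaling lower every log2 fold change by construction, leaving out the filter adds tested genes, and the cause of the changes under quantile normalization was not tested. Over all alternatives the log2 fold change lay between -3.33 and -2.78 for Acvrl1, 0.92 and 1.29 for Eng, 0.811 and 1.149 for Tgfbr1 and -1.08 and -0.74 for Id2. With the replicate number as a block, 6179 genes were higher and 2211 lower, and the pathway list again had 48 and 10; it changed no call count by over 1.5 times. Same-numbered libraries did not deviate together (correlation -0.0561), and with 2 pairs the number is taken as a name only. Without each replicate in turn, which leaves 1 library in an arm that is assumed to vary like the others, genes called higher ranged from 5442 to 6145 and lower from 1875 to 2237, those of the 10 called higher from 3 to 4, pathway genes higher from 40 to 48 and lower from 9 to 10, and the share of type I receptor TPM held by Acvrl1 stayed between 11.4 and 13.6% in Tet2 KO and between 66.7 and 67.5% in WT. With 2 libraries a group and TPM alone, neither biological spread nor depth could be assessed, and values under 1 TPM are the least certain.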
